A study of Mus musculus with 22 samples.

Results

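The BCL2 family decides whether a cell under stress lives or undergoes apoptosis at the mitochondrion. Its survival proteins (BCL2; BCL-XL, encoded by Bcl2l1; MCL1; A1, encoded by Bcl2a1b and its near-identical copies) hold the pore-forming effectors BAX and BAK (Bak1) in check. The BH3-only proteins BIM (Bcl2l11), PUMA (Bbc3), NOXA (Pmaip1) and BID bind the survival proteins or act on the effectors, and so tip the balance toward death. In CD8+ T cells, interleukin 7 is known to sustain Bcl2, BIM is known to remove cells as a response contracts, and A1 is known to be induced by antigen receptor signalling. The 10 genes were taken by symbol from the expression table, which lists 46252 symbols. Each symbol matched 1 gene of the mm10 annotation (GENCODE M21). Bcl2 spans chr1:106538178-106714274, Bcl2l1 chr2:152780668-152831728, Bax chr7:45461697-45466898, Bak1 chr17:27019810-27029009 and Bid chr6:120891930-120916853 on the minus strand. Mcl1 spans chr3:95658788-95663176, Bcl2a1b chr9:89199209-89207827, Bcl2l11 chr2:128126038-128162547 and Bbc3 chr7:16308393-16318205 on the plus strand. The values count whole genes, and all 10 genes passed the filter on low values that left 14327 genes for testing.

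The data are bulk RNA-seq of P14 CD8+ T cells, cells with a transgenic antigen receptor, in 22 libraries. The cells came from spleen or tumor of C57BL/6 mice aged 6 to 12 weeks, and were wild-type (WT) or VHL-deficient. VHL is the ubiquitin ligase subunit that marks hypoxia-inducible factors (HIF) for destruction in the presence of oxygen, so its loss lets HIF accumulate. At day 7 each genotype had 2 libraries of spleen cells, 2 of unsplit tumor cells, 2 of tumor cells sorted as Trm and 2 of tumor cells sorted as nonTrm, and at day 11 each genotype had 3 libraries of tumor cells. Each biological replicate pooled 5 mice. The labels do not say how Vhl was deleted, which tumor was used or how Trm and nonTrm were gated. The "V" before Trm and nonTrm in the labels was read as VHL-deficient. No label says whether WT and VHL-deficient cells shared hosts, and each p-value reflects library-to-library variation alone, part of which may be technical. Reads per library ranged from 3375558 to 10211060, with 26.9% to 45.7% of them from ribosomal RNA. Vhl had 0 to 32 reads in VHL-deficient libraries against 60 to 280 in WT libraries, and it fell in all 5 genotype comparisons. Of the T cell markers, Cd3e lay between 1182 and 2884 and Cd8a between 1713 and 14333 scaled counts in all 22 libraries. One library, VHL-deficient nonTrm replicate 2, differed from the rest, with the highest ribosomal RNA share (45.7% against at most 42.3% in the other 21) and a scaled count of the nuclear RNA Malat1 of 34358 against 4839 to 15027.

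HIF binds DNA at a short core that reads ACGTG or GCGTG, and FOXO factors, known activators of Bcl2l11, bind a core that reads GTAAACA. Both were looked for on both strands in the 250 bases before the RefSeq start sites (GRCm38.p6), where 9 of the 10 genes had 14 windows. The windows of Bcl2 and Bcl2l11, the genes with the most calls below, are printed 5′ to 3′ along the gene, with matches to either core in capitals on the strand shown (CACGC is GCGTG read on the other strand). The Bcl2 window lies on the minus strand at chr1:106714291-106714540, and the first Bcl2l11 window on the plus strand at chr2:128125788-128126037.
Bcl2: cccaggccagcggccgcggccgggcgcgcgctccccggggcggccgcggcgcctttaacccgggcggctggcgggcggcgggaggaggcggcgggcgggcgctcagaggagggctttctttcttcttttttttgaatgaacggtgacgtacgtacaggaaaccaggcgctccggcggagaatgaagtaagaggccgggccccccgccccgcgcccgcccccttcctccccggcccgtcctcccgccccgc
Bcl2l11: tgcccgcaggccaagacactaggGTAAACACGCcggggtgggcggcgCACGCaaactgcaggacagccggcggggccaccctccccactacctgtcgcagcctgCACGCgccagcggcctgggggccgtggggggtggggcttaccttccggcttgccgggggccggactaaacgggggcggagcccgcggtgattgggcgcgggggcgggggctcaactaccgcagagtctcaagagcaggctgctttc
The Bcl2 window held neither core. The Bcl2l11 window held GCGTG 3 times, all on the strand opposite to the gene and 222, 203 and 146 bases before the start site, and GTAAACA once, 227 bases before it on the gene's own strand, sharing bases with the most distant GCGTG. The second Bcl2l11 window held neither core. Of the members, 5 had an ACGTG or GCGTG in at least 1 window (Bcl2l1, Bcl2a1b, Bax, Bcl2l11 and Bbc3). Such a match is common: 38.6% of the 32851 windows in the table held ACGTG or GCGTG, and 3.17% held GTAAACA. A match describes these letters and is not evidence of binding.

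Levels are given as scaled counts, the read count of a gene after division by the library's size factor. Levels per kilobase divide by all annotated exons of a gene, not by the transcript in use, so they compare genes only roughly. The medians over 22 libraries were 245 for Bax, 237 for Bcl2a1b (whose reads can be shared with its copies), 171 for Pmaip1, 169 for Bcl2l11, 139 for Mcl1, 135 for Bcl2 and 99.999 for Bcl2l1. Bid followed at 46.9 per kilobase, and Bbc3 (8.03) and Bak1 (5.33) were the lowest members. Bak1 rested on 3 to 27 reads per library and Bbc3 on 5 to 59, so their values are the least precise. Bcl2l11 ranged from 7.79 to 313 per kilobase and Bcl2a1b from 19.2 to 474, with the spleen libraries lowest for both. The 474 came from VHL-deficient nonTrm replicate 2, the library that differed from the rest.

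**Figure D1:**
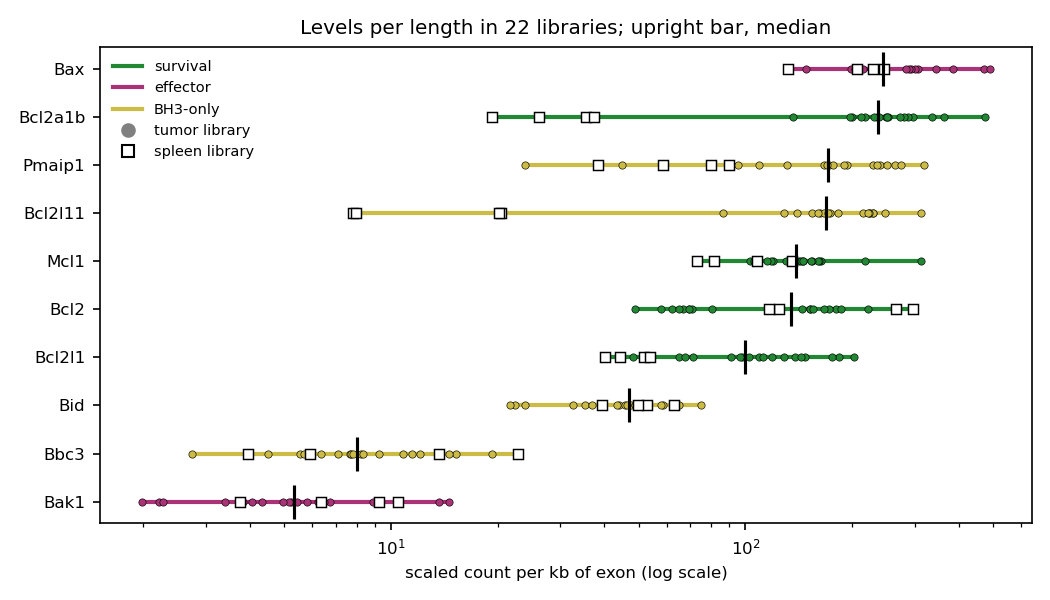
Scaled count per kilobase of exon (log axis) of each member in 22 libraries; circles are tumor libraries, squares spleen libraries, the line spans lowest to highest and the upright bar is the median. Bcl2l11 and Bcl2a1b have their 4 spleen libraries below every tumor library.

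Differences were tested with limma on log2(scaled count + 1), in 1 fit of all 22 libraries with p-values adjusted over 14327 genes, and a gene is said to have risen or fallen where its adjusted p was under 0.05. Fold changes are on that log2 scale. Statements that groups were apart or did not overlap describe the values alone. The share of all genes separated in this way is not given here. Loss of VHL changed 1 to 3 of the 10 members in each of 5 settings, 8 calls in all, and 5 of the 8 were a rise of Bcl2. In day 11 tumor 1 member rose and 0 fell, where 6.87% of all genes tested were called (4.47% rose, 2.39% fell). In unsplit day 7 tumor 1 rose and 0 fell (1.91% of all genes called, 1.68% up and 0.223% down). In spleen 1 rose and 1 fell (3.18%, 2.44% up and 0.733% down). In Trm 1 rose and 2 fell (10.1%, 5.07% up and 5.03% down), and in nonTrm 1 rose and 0 fell (2.32%, 1.65% up and 0.67% down). The median fold change of the 10 members was near that of all genes in 4 settings, for example 0.0029 against 0.066 in day 11 tumor, and was 0.27 against 0.086 in Trm.

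**Figure D2:**
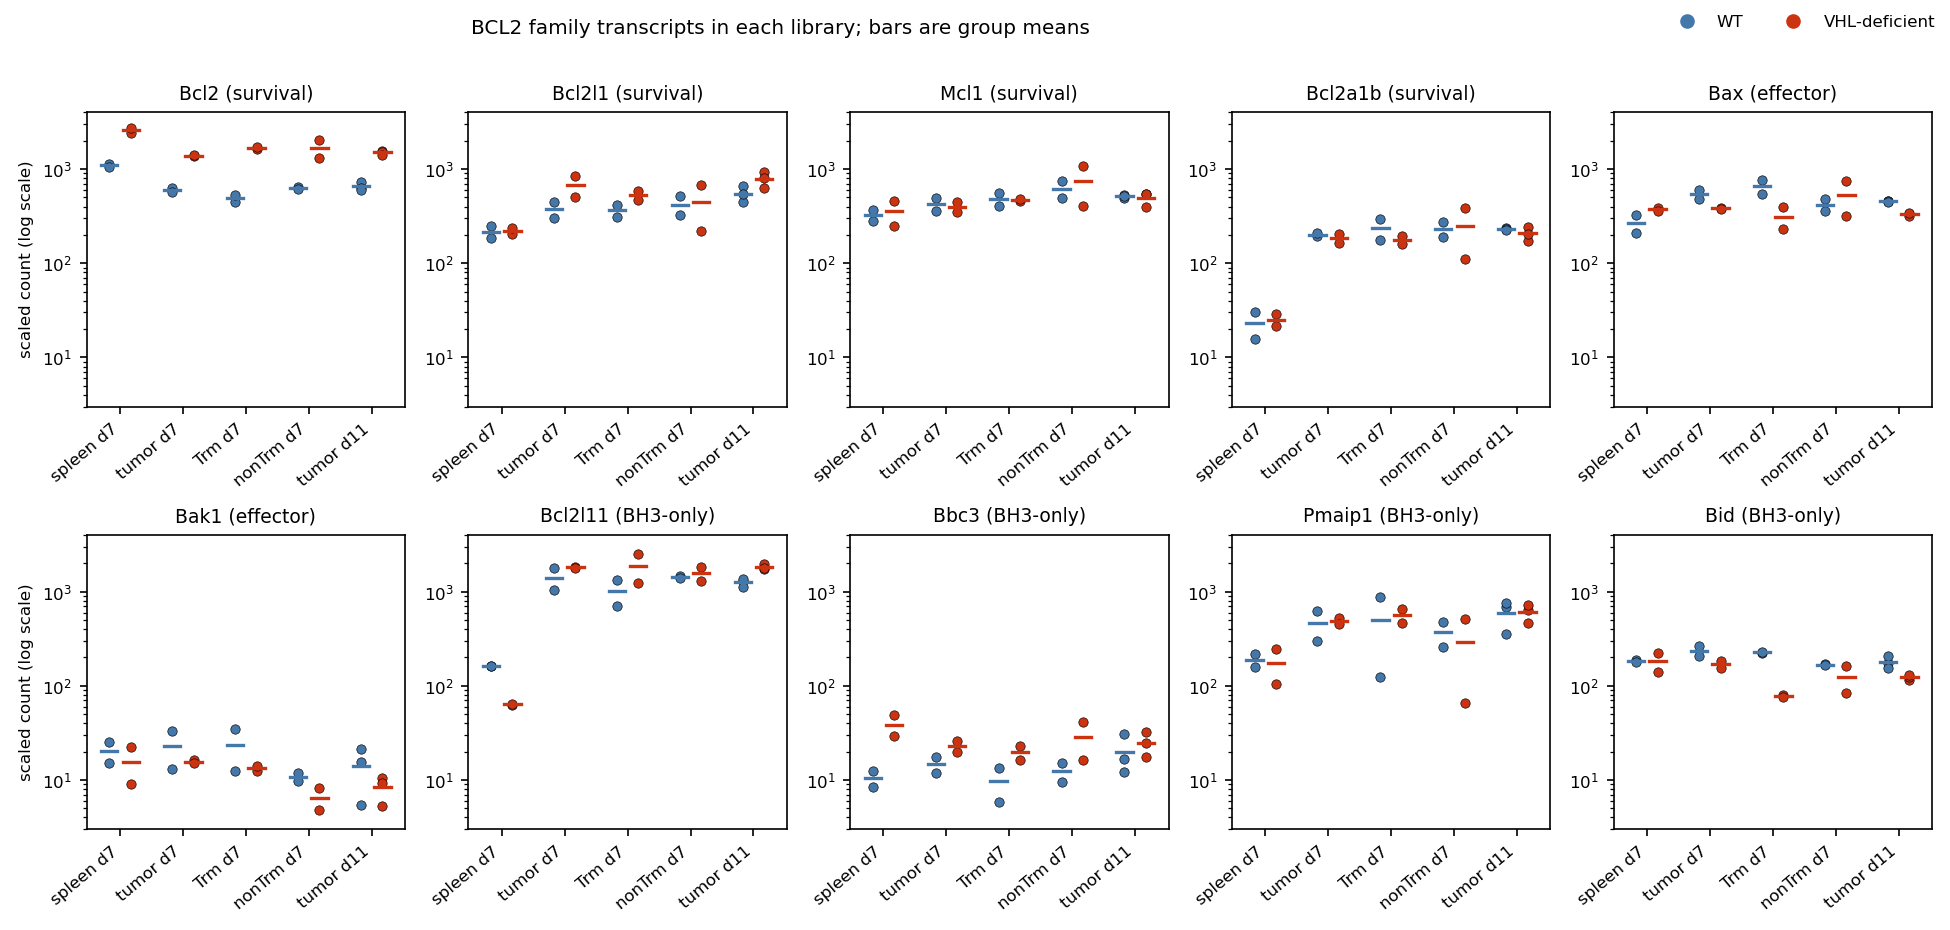
Scaled count (log axis) of each member in each library by setting, WT in blue and VHL-deficient in red; short bars are group means. Bcl2 is separated by genotype in every setting, and Bcl2l11 and Bcl2a1b are separated by tissue in both genotypes.

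Bcl2, the founding survival member, was higher without VHL in every setting. In day 11 tumor its scaled counts were 1575, 1528 and 1419 in VHL-deficient libraries and 737, 634 and 594 in WT libraries. The means were 1507 ± 79.8 and 655 ± 73.6 (SD, n = 3 each), a ratio of 2.30 and a log2 fold change of 1.21 (SE 0.18, limma adjusted p = 2.84e-04). No library of one genotype reached the other. In unsplit day 7 tumor the VHL-deficient libraries were at 1389 and 1394 and the WT libraries at 636 and 569 (log2 fold change 1.21, adjusted p = 0.0038). In Trm cells the values were 1645 and 1705 against 447 and 528 (1.78, adjusted p = 5.05e-05), and the WT Trm mean, 488 ± 57.2, was the lowest of the 10 groups. In nonTrm cells they were 2036 and 1326 against 649 and 609 (1.38, adjusted p = 0.0011). The 9 VHL-deficient tumor libraries therefore spanned 1326 to 2036 and the 9 WT tumor libraries 447 to 737, with no overlap. In spleen both genotypes had higher levels: 2443 and 2724 without VHL against 1141 and 1064 in WT (ratio 2.34, log2 fold change 1.23, adjusted p = 0.0022). In bulk samples, more cells of a type that makes a transcript and more transcript per cell cannot be told apart.

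Leaving out 1 library ended the Bcl2 call in unsplit day 7 tumor without VHL-deficient replicate 1 (adjusted p = 0.063), VHL-deficient replicate 2 (0.052) or WT replicate 2 (0.064), with fold changes of 1.13 to 1.21. The nonTrm call was lost in a fit of those 4 libraries alone (adjusted p = 0.73, 11 genes called). A difference of this fold change was not detectable between tissues (difference -0.02, 95% interval -0.68 to 0.64), between Trm and nonTrm (0.40, -0.26 to 1.06) or between days (-0.0032, -0.61 to 0.60).

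The other survival genes were not called in any genotype comparison. Bcl2l1 had log2 fold changes between -0.08 in nonTrm and 0.82 in unsplit day 7 tumor (in day 11 tumor 789 ± 150 against 549 ± 107, n = 3 each, adjusted p = 0.37). Its 2 genotypes did not overlap in unsplit day 7 tumor (841 and 500 against 448 and 299, adjusted p = 0.38) and in Trm (589 and 469 against 309 and 418, adjusted p = 0.41). Mcl1, a short-lived survival protein that T cells need throughout life, had log2 fold changes between -0.10 and 0.13, with overlapping groups in all 5 settings. Bcl2a1b lay between -0.39 and 0.17, also with overlapping groups. Thus of the 4 survival genes, Bcl2 alone passed the test for genotype.

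Among death genes, Bcl2l11 moved the other way to Bcl2 in spleen. It had 62.6 and 64.0 scaled counts without VHL and 164 and 162 in WT, from 28, 78, 118 and 155 reads (log2 fold change -1.35, SE 0.33, adjusted p = 0.024). The 2 genotypes were well apart there, yet the call was lost without each of the 4 spleen libraries in turn: VHL-deficient replicate 1 (adjusted p = 0.16), VHL-deficient replicate 2 (0.0996), WT replicate 1 (0.13) and WT replicate 2 (0.13). It was also lost with a variance prior without trend (0.068) and with voom weights on recovered reads (0.16). In tumor the VHL-deficient means of Bcl2l11 were the higher ones, and no setting was called: 1828 ± 138 against 1260 ± 124 in day 11 tumor (n = 3 each, groups apart, adjusted p = 0.24), 1875 ± 900 against 1016 ± 453 in Trm (adjusted p = 0.095), 1821 ± 30.3 against 1410 ± 537 in unsplit day 7 tumor (groups apart, adjusted p = 0.59) and 1574 ± 378 against 1426 ± 54.6 in nonTrm (adjusted p = 0.92). In a fit of the 6 day 11 libraries alone Bcl2l11, Bcl2l1 and Bax were called as well (adjusted p = 0.0091, 0.045 and 0.026), and that fit called 3023 genes in place of 984. The genotype difference of Bcl2l11 in unsplit tumor exceeded that in spleen by 1.78 (95% interval 0.81 to 2.74, unadjusted p = 0.0010), which did not pass the adjustment over all genes (adjusted p = 0.21).

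Bid, which links death receptors to the mitochondrion once caspase 8 has cut it, fell without VHL in Trm cells. Its scaled counts there were 79.6 and 76.9 against 223 and 230 (log2 fold change -1.52, SE 0.31, adjusted p = 0.0036), the lowest pair of Bid values among the 10 groups. The call was just lost without VHL-deficient Trm replicate 2 (adjusted p = 0.052). None of the other tumor settings passed, though their VHL-deficient values lay below the WT values: 116, 125 and 131 against 173, 154 and 205 in day 11 tumor (adjusted p = 0.25), 184 and 156 against 207 and 266 in unsplit day 7 tumor (0.52), and 163 and 84.6 against 169 and 165 in nonTrm (0.46). In nonTrm the 163 was close to WT. The 84.6, from 31 reads, came from VHL-deficient replicate 2, the library that differed from the rest. In spleen the means were almost equal, 181 ± 59.4 and 182 ± 7.63 (n = 2 each). Between Trm and nonTrm the genotype difference of Bid differed by -1.02 (unadjusted p = 0.029, adjusted p = 0.58).

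Bax, the effector, also fell without VHL in Trm cells, from 770 and 543 to 392 and 234 (log2 fold change -1.09, SE 0.34, adjusted p = 0.044). This call was close to the threshold. It was lost in 16 of 34 alternative analyses, among them leaving out VHL-deficient Trm replicate 2 (fold change -0.72, adjusted p = 0.44) or WT Trm replicate 1 (-0.84, 0.32), a block for replicate number (0.067), and leaving out any of 10 libraries from other groups (0.052 to 0.057): all 6 of day 11 tumor, and both VHL-deficient ones of spleen and of unsplit day 7 tumor. In day 11 tumor the 3 VHL-deficient values, 321 to 338, lay below the 3 WT values, 447 to 463, with an adjusted p of 0.35. Bak1, the second effector, had a lower VHL-deficient mean in all 5 settings, each at an adjusted p of 0.59 or more.

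The remaining BH3-only genes passed no genotype test. Bbc3, known as a p53 target, had a higher VHL-deficient mean in all 5 settings, the widest gap being in spleen with 29.1 and 48.4 (13 and 59 reads) against 12.5 and 8.38 (9 and 8 reads; log2 fold change 1.77, unadjusted p = 0.0070, adjusted p = 0.13). Pmaip1, whose protein binds MCL1, varied widely within groups: 2 WT Trm libraries had 123 and 874, and 2 VHL-deficient nonTrm libraries had 518 and 65.5. The 65.5, from 24 reads, was that of replicate 2, the library that differed from the rest.

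Several quality and cell type measures moved with genotype. The 7 listed transcripts of the mitochondrial genome summed to 102646 and 134344 in WT Trm but 30003 and 42013 in VHL-deficient Trm, and 4 of 4 tested members fell there and in day 11 tumor. In unsplit day 7 tumor and in nonTrm 1 of 4 fell, and in spleen 0 of 4. The nuclear RNA Neat1 rose in Trm (1180 ± 701 against 287 ± 161), with no call in the other settings. Among B cell markers Ighm fell in all 5 settings (summed list, 193 to 196 without VHL and 404 to 498 in WT for Trm), while the defining gene Ms4a1 was at 0 in 15 of 22 libraries and at most 2.35. Of 5 dendritic cell genes tested Xcr1 rose in 3 settings, H2-Eb1 fell in day 11 tumor and Trm and H2-Aa in day 11 tumor, of 6 NK cell genes Eomes fell in day 11 tumor and Trm, Klrb1f in day 11 tumor and Klri2 in spleen, and of 5 CD4 T cell genes Ctla4 rose in spleen and Trm and Cd4 in unsplit day 7 tumor. Cd4 was at most 25.1 scaled counts in any library. None of the 8 CD8 T cell genes was called for genotype. The part of these measures in the genotype calls of Bcl2, Bcl2l11, Bid and Bax was not tested.

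**Figure D3:**
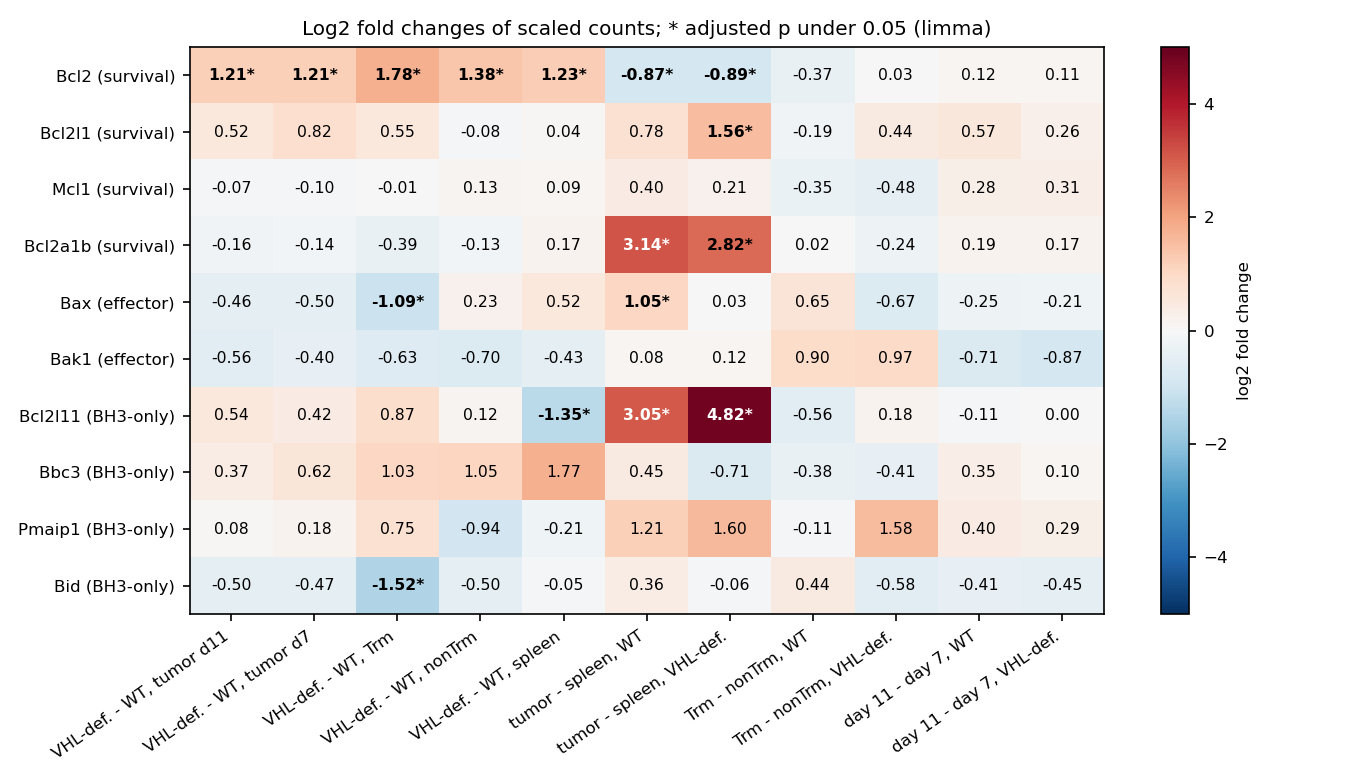
Log2 fold change of each member (rows) in 11 comparisons (columns), red for higher and blue for lower in the group named first; a star marks an adjusted p under 0.05. Bcl2 carries 5 of the 8 starred genotype values, and the starred values past 2.5 are those of Bcl2l11 and Bcl2a1b between tumor and spleen.

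Between unsplit day 7 tumor and spleen 4 of 10 members were called in WT cells, where 21.5% of all genes were called, and 4 of 10 in VHL-deficient cells, where 15.4% were. In each genotype 3 members rose and 1 fell, against 13.2% of all genes up and 8.31% down in WT cells and 9.98% up and 5.47% down in VHL-deficient cells. The members' median log2 fold change was 0.61 in WT and 0.17 in VHL-deficient cells, against 0.076 and 0.062 over all genes. Bcl2 fell and Bcl2a1b and Bcl2l11 rose in both genotypes, Bax rose in WT cells, and Bcl2l1 rose in VHL-deficient cells.

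Bcl2l11 showed the widest range. All 4 spleen libraries lay between 62.6 and 164 and all 18 tumor libraries between 696 and 2511. In WT cells the unsplit tumor libraries had 1790 and 1030 against 164 and 162 in spleen (log2 fold change 3.05, SE 0.33, adjusted p = 1.44e-06). Without VHL they had 1842 and 1799 against 62.6 and 64.0 (4.82, SE 0.33, adjusted p = 2.42e-09), a ratio of means of 28.8 against 8.63 in WT. Both calls held in all 34 alternative analyses.

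Bcl2a1b, the A1 gene, was also higher in tumor, and was not called for genotype in any setting. Its unsplit tumor libraries had 195 and 207 in WT and 204 and 163 without VHL, and the spleen libraries had 30.6 and 15.7, and 29.1 and 21.3, from 13 to 26 reads. The log2 fold changes were 3.14 (adjusted p = 3.2e-05) and 2.82 (adjusted p = 1.34e-04). The 18 tumor libraries spanned 111 to 387, the highest being VHL-deficient nonTrm replicate 2. Reads can be shared with its copies, since the Bcl2a1b transcript matches that of Bcl2a1d at 99.1%, that of Bcl2a1a at 98.2% and that of Bcl2a1c at 95.3% of aligned bases, so its level on its own is uncertain. Bcl2a1d rose with tumor as well, from 6.61 ± 6.39 to 112 ± 81.2 in WT (adjusted p = 9.00e-05) and from 1.94 ± 0.42 to 91.0 ± 7.19 without VHL (adjusted p = 9.08e-06; n = 2 each). Bcl2a1a and Bcl2a1c had at most 13.5 scaled counts in any library.

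Bcl2 fell from spleen to tumor in both genotypes: 1141 and 1064 to 636 and 569 in WT (log2 fold change -0.87, adjusted p = 0.0089), and 2443 and 2724 to 1389 and 1394 without VHL (-0.89, adjusted p = 0.0097). The 9 VHL-deficient tumor libraries (1326 to 2036) were all above the 2 WT spleen libraries (1064 and 1141). The WT call was lost without spleen replicate 1 (adjusted p = 0.063) or tumor replicate 2 (0.076), and the VHL-deficient call without spleen replicate 2 (0.074), tumor replicate 1 (0.075) or tumor replicate 2 (0.059).

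Bcl2l1 rose in VHL-deficient cells from 203 and 237 in spleen to 841 and 500 in tumor (log2 fold change 1.56, SE 0.40, adjusted p = 0.012). In WT cells it was at 246 and 184 in spleen and 448 and 299 in tumor (0.78, adjusted p = 0.18). The difference between these was itself not called (0.78, 95% interval -0.41 to 1.97, adjusted p = 0.64). The VHL-deficient call was lost without spleen replicate 1 (0.097) or tumor replicate 1 (0.18).

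Bax rose in WT cells from 326 and 208 to 483 and 607 (log2 fold change 1.05, adjusted p = 0.031) and was at 387 and 360, then 386 and 378, without VHL. The WT call was lost without spleen replicate 2 (adjusted p = 0.27), without tumor replicate 2 (0.20), with a prior without trend (0.061) and with no filter on low values (0.077), and the difference between genotypes was not called (-1.02, adjusted p = 0.51). Pmaip1 had tumor values above all spleen values in both genotypes (625 and 299 against 160 and 218 in WT, and 529 and 455 against 105 and 246 without VHL), but neither was called (adjusted p = 0.28 and 0.17). Mcl1, Bak1, Bbc3 and Bid were not called in either genotype.

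Markers of other cells also moved with tissue. The summed CD4 T cell list was 239 and 327 in WT spleen and 3756 and 3902 in WT unsplit tumor. Without VHL it was 1299 and 1452 in spleen and 4556 and 5969 in unsplit tumor. Of its 5 genes Ctla4, an inhibitory receptor also made by activated CD8 T cells, rose in both genotypes (197 ± 81.5 to 3735 ± 97.3 in WT, and 1278 ± 119 to 5175 ± 1018 without VHL, n = 2 each). Foxp3 rose in WT cells, where it was at 0 in both spleen libraries and at 7.89 ± 1.18 in tumor (n = 2). The median log2 fold change of the 5 CD4 T cell genes was 0.34 in WT and -0.18 without VHL. The defining gene Cd4 was at most 25.1 scaled counts in any library and at 0 in 2. Of the 8 CD8 T cell genes Cd8a and Zap70 rose in both genotypes, and Cd2 and Cd8b1 fell without VHL. The dendritic cell gene Itgax fell and the monocyte gene Cd14 rose in both genotypes, and Cd68 rose in WT cells. The B cell gene Cd79b fell in tumor in both genotypes, the NK cell lectin genes Klre1 and Klri2 rose in both, and the summed macrophage list was 13.9 to 38.0 in spleen and 24.3 to 79.96 in unsplit tumor. Several defining markers were at 0 in most libraries: Ms4a1 at 0 in 15, S100a8 at 0 in 18, Ncr1 at 0 in 15, and the macrophage receptor gene Csf1r was at most 6.21. The summed neutrophil list was 874 in WT day 11 replicate 2 and 154 or less in the other 21 libraries. Of the mitochondrial list, mt-Nd1 and mt-Cytb rose and Neat1 fell with tumor in WT cells. The part of all these measures in the tissue results was not tested.

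The difference of log2 levels of Bcl2 and Bcl2l11, the members with the most calls, was taken within each library. It compares transcripts of a survival gene and of the death gene whose protein BCL2 binds, and does not measure the balance of the proteins. It was 5.33 in VHL-deficient spleen and 2.75 in WT spleen. In the 4 tumor settings it lay between -1.18 and -0.94 in WT groups and between -0.39 and 0.08 in VHL-deficient groups, and Bcl2l11 had the higher scaled count in all 9 WT tumor libraries. In VHL-deficient tumor the counts of both genes were close, and single libraries ranged from -0.56 to 0.41. Since the genes differ in exon length, the sign of this difference has no meaning of its own. For Mcl1 and Pmaip1 the group means of the same measure ran from -0.31 to 1.84, with an SD of up to 3.07 within a group. These are descriptions without a test.

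**Figure D4:**
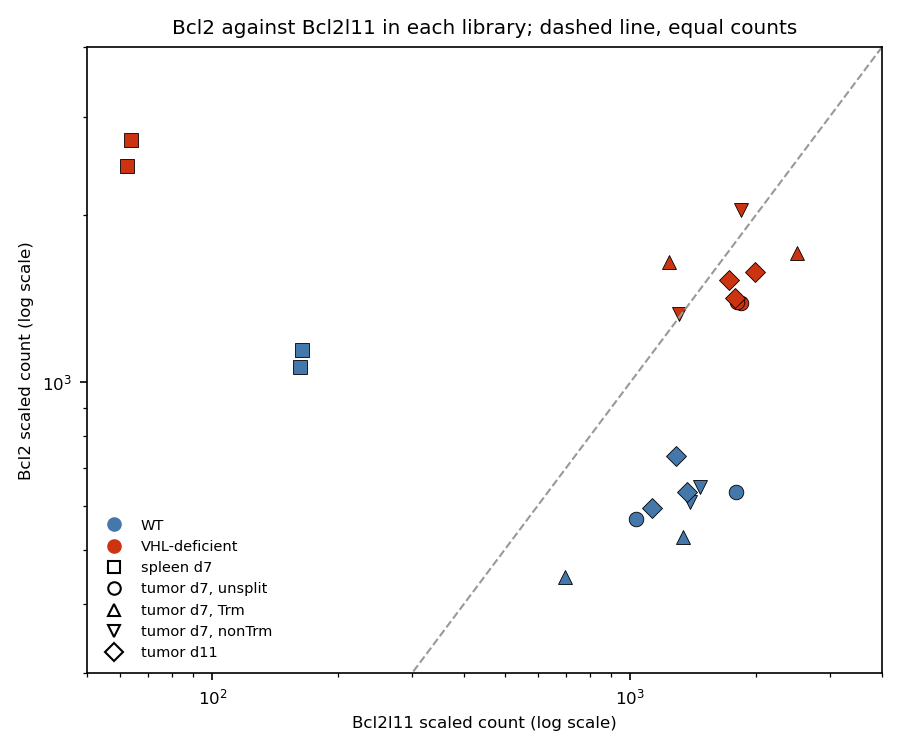
Bcl2 against Bcl2l11 scaled counts (both log axes) in each of 22 libraries, WT in blue and VHL-deficient in red, symbols by setting, dashed line at equal counts. Spleen libraries lie at the left and tumor libraries at the right, and within each tissue the VHL-deficient libraries lie above the WT libraries.

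Neither subset nor day changed a member by the test. Between Trm and nonTrm cells 0 of 10 members were called in WT (0.3% of all genes, 0.202% up and 0.0977% down) and 0 of 10 in VHL-deficient cells (0.00698%), with 0 at an unadjusted p under 0.05 and 0 by voom. Without VHL-deficient nonTrm replicate 1, which leaves the library that stands apart alone in its group, 4 members differed between VHL-deficient Trm and nonTrm: Pmaip1 (3.06, adjusted p = 0.0093), Bax (-1.30, 0.011), Bcl2l1 (1.25, 0.027) and Mcl1 (-1.17, 0.028). Between day 11 and day 7 tumor 0 of 10 members were called in either genotype, also at an unadjusted p under 0.05 and by voom, and 0% of all genes were. The sample titles end in what look like plate positions, whose number differs between the days, so if they are positions, day and column cannot be told apart. The tests of whether genotype acts differently by tissue (0.0698% of all genes called, 0.0209% up and 0.0489% down), subset (0%) or day (0%) called 0 members. At an unadjusted p under 0.05 there were 2 members by tissue (Bcl2l11 and Bax), 2 by subset (Bax and Bid) and 0 by day, and voom called 0.

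The wider pathway was followed in 5 lists. Of 17 other BCL2 family genes 11 were tested. Bnip3 and Bnip3l, BH3-containing proteins best known as mitophagy receptors and HIF targets, were the listed genes that rose without VHL: both in day 11 tumor, unsplit day 7 tumor, Trm and nonTrm, and Bnip3 in spleen. Bnip3 went from 207 ± 63.9 to 3077 ± 308 in day 11 tumor (n = 3 each, log2 fold change 3.92, adjusted p = 2.66e-08) and from 29.95 ± 18.7 to 1192 ± 7.75 in spleen (n = 2 each, 5.41, adjusted p = 2.31e-09). The other 9 tested genes of the list were not called for genotype. The Bnip3l call in nonTrm was lost in a fit of those 4 libraries alone (adjusted p = 0.39), and in spleen Bnip3l did not pass (0.71, adjusted p = 0.058). Between tumor and spleen Bnip3 and Bcl2a1d rose in both genotypes and Bnip3l without VHL, while Bad fell without VHL (-1.19, adjusted p = 0.047), a call lost in 18 of 34 alternatives, among them leaving out each of the 4 libraries compared (0.10 to 0.22).

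Of 18 genes of the apoptosome, the caspases and their inhibitors, 0 to 2 were called in each genotype comparison. Of all genes, 1.91% to 10.1% were called in the same comparisons. Birc3, an inhibitor of apoptosis induced by NF-kappaB, rose without VHL in day 11 tumor (726 ± 62.8 against 369 ± 31.1, n = 3 each, adjusted p = 0.014) and in Trm (756 ± 309 against 287 ± 105, adjusted p = 0.0044). The first call was lost without VHL-deficient replicate 1 or 2 or WT replicate 1 (adjusted p = 0.059 to 0.072), and the second without VHL-deficient replicate 2 or WT replicate 1 (0.15 and 0.10) and in a fit of the 4 Trm libraries alone (0.060). Cycs, cytochrome c, fell in Trm (-1.78), and that call was lost without VHL-deficient replicate 2 (0.31) or WT replicate 1 (0.19).

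Of 14 death receptor genes, Cflar, the inhibitor of caspase 8 activation, rose without VHL in day 11 tumor (743 ± 66.4 against 375 ± 43.3, 0.99, adjusted p = 0.0068), in unsplit day 7 tumor (1.25, 0.012) and in Trm (0.96, 0.023). The day 7 call was lost without VHL-deficient replicate 1 or 2 or WT replicate 2 (0.083, 0.15 and 0.19), and the Trm call without VHL-deficient replicate 2 (0.34) or WT replicate 1 (0.29), in the 4 Trm libraries alone (0.16), with no filter (0.072) and without trend (0.050145). Ripk3, the necroptosis kinase, rose in day 11 tumor (0.92, adjusted p = 0.0095, lost at 0.059 without WT replicate 1) and in Trm (1.14, 0.0078, lost at 0.080 in the 4 Trm libraries alone). With tumor 3 of 14 rose and 1 fell in WT cells, where 21.5% of all genes were called, and 4 rose without VHL, where 15.4% were, among them in both genotypes the ligand genes Fasl, Tnfsf10 and Tnf. Without VHL Tnfsf10 rose by 2.19 (adjusted p = 1.19e-04) and Tnf by 2.76 (1.26e-04), and both calls held in all alternatives. In WT cells Tnfsf10 (1.01, 0.035) and Tnf (1.27, 0.036) each lost the call in several, among them without tumor replicate 2 (0.075 and 0.45). Fasl lost it without WT spleen replicate 2 (0.060) in WT cells and without tumor replicate 1 (0.090) without VHL. Cflar was the gene that fell in WT cells (-1.19, adjusted p = 0.0028).

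Of 16 genes in the list of p53 and its targets, 1 or 2 were called in each genotype comparison (1.91% to 10.1% of all genes). Zmat3 fell without VHL in day 11 tumor (-1.51, adjusted p = 0.0033) and in Trm (-2.42, adjusted p = 3.09e-04), and both calls held in all alternatives. Its call in unsplit day 7 tumor (-1.47, 0.040) was lost in 13, among them without each of the 4 libraries compared (0.076 to 0.45). Cdkn1a rose in spleen (2.92, adjusted p = 0.0011), a call lost with voom on recovered reads (0.24). In tumor against spleen 5 of 16 rose and 1 fell in WT cells (21.5% of all genes called) and 3 rose without VHL (15.4%). Cdkn1a, the cell cycle inhibitor p21, went from 9.59 ± 0.22 to 721 ± 18.3 in WT (6.09, adjusted p = 4.28e-08) and from 79.9 ± 18.1 to 762 ± 105 without VHL (3.25, adjusted p = 1.43e-04). Bbc3, Pmaip1 and Bax are p53 targets too, and of the 3 Bax alone was called between tumor and spleen, in WT cells.

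Of 23 genes upstream of the family, 0 to 2 were called for genotype in any setting (1.91% to 10.1% of all genes). Among them Nr4a1 rose in spleen (2.14, adjusted p = 0.0012), which was lost with voom (0.22). With tumor, 7 of 23 rose and 1 fell in WT cells (21.5% of all genes called), and 8 rose and 1 fell without VHL (15.4%). Il7r, the interleukin 7 receptor, was the gene that fell: from 3736 ± 196 to 304 ± 111 in WT (-3.66, adjusted p = 1.90e-06) and from 2158 ± 366 to 494 ± 43.0 without VHL (-2.12, adjusted p = 0.0011). Nr4a1, induced by antigen receptor signalling, went from 14.1 ± 2.26 to 3195 ± 364 in WT (7.73, adjusted p = 1.25e-11) and from 65.4 ± 5.49 to 3105 ± 818 without VHL (5.52, adjusted p = 2.16e-09). Il2ra, a chain of the interleukin 2 receptor, rose by 2.55 and 2.69 and Rel, an NF-kappaB subunit, by 2.62 and 3.87 (all n = 2 per group).

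By Pearson correlation of log2 group means over the 10 groups, the genes most like each member among 7011 were Kdm2a (r = 0.97), Runx3 (0.97) and Adam19 (0.96) for Bcl2. For Bcl2l11 they were Cblb (0.99), Tex2 (0.99) and Ppp1r16b (0.98). For Bcl2a1b they were Nr4a2, Nr4a3 and Gadd45b (each 0.99), and for Bcl2l1 Kif13b (0.98), Cbfb and Tnfsf10 (both 0.97). Bax was most like Cox7b (0.99), Cks2 and Eif6 (both 0.98), and Bid like Mrps18b (0.98), Dkc1 and Noa1 (both 0.95). Mcl1 was most like Zfp36l1 (0.95), Nfkbia and Mif4gd (both 0.93), Pmaip1 like Bhlhb9 (0.98), Stx5a (0.97) and Sar1a (0.95), Bbc3 like Rlf (0.95), Pglyrp1 (0.93) and Mprip (0.91), and Bak1 like Cep295 (0.92), Faap24 (0.90) and Scpep1 (0.89). The points share libraries and size factors, and the 2 spleen groups carry much of the range of Bcl2l11 and Bcl2a1b.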

How the data were processed

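Per the labels' protocols, cells were sorted into lysis buffer and libraries made from total RNA with a PrepX kit. The submitters' processing notes name STAR, featureCounts, DESeq and mm10. The deposited values are a signal, the gene count divided by a size factor with 1 added: after the 1 was removed, values were whole multiples of 1 read's worth in each library (largest deviation 0.00058 reads), and reads were recovered from them. No source used here states the strand setting or how reads shared between copies were counted.

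Scaled counts were tested as log2(scaled count + 1) with limma 3.58.1 (R 4.3.3; eBayes with trend), group means of 10 groups in 22 libraries, 12 residual degrees of freedom, 14 comparisons, two-sided, Benjamini-Hochberg over the 14327 genes that reached 10 scaled counts in 2 or more libraries, called at an adjusted p under 0.05. The fit was checked on simulated data with changes set in day 11 VHL-deficient tumor only. That check therefore does not cover comparisons between groups of 2 libraries. Values are given as mean ± SD. Exon lengths are from GENCODE M21 on mm10, and promoter windows from RefSeq (GRCm38.p6). The genes named are the 10 members in every comparison, Vhl, up to 3 called genes per pathway list and direction with the smallest adjusted p, and the 3 genes most like each member among those with a mean log2 level of at least 6. Members and lists were chosen with earlier results of these data known. Alternatives changed the scaling, filter, pseudocount, variance model, libraries fitted, replicate block and test, and left out each library in turn.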

Additional observations from a re-analysis of the deposited data

Results flagged for a closer look

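Bnip3l, a mitophagy receptor related to the BCL2 family, was the 1 gene of the 5 pathway lists whose response to VHL loss differed between unsplit day 7 tumor and spleen by the test of the difference itself: its genotype fold change was larger in tumor by 1.53 on the log2 scale (SE 0.28, limma adjusted p = 0.047). Its means were 1363 ± 45.2 without VHL and 287 ± 16.7 in WT tumor (n = 2 each), and 635 ± 3.16 without VHL and 388 ± 14.9 in WT spleen (n = 2 each). The call was lost in 25 of 34 alternative analyses, including without each of the 8 libraries compared (adjusted p = 0.054 to 0.30), so it rests close to the threshold. Among marker genes, Ctla4 had a genotype fold change lower in tumor than in spleen by the same test (difference -2.30, SE 0.43, adjusted p = 0.047). None of the 10 members passed such a test.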

How the results depend on the processing

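Of 140 tests of members, 16 were called, and 118 of the 140 kept their call or lack of one in every alternative. Over 4759 alternative values 38 lost a call, 15 gained one and 0 reversed a call. Leaving out 1 library gave 6 to 10 genotype calls against 8, 0 to 4 between Trm and nonTrm against 0, 6 to 8 between tumor and spleen against 8, 0 to 0 between days and 0 to 2 in the interactions against 0. The 4 and the 2 arose without VHL-deficient nonTrm replicate 1, the 2 being Bax (adjusted p = 0.010) and Pmaip1 (0.040) by subset. That leaves 1 library in the group, assumed to vary like the others, and it also called Pmaip1 (0.033) and Bid (0.046) for genotype in nonTrm. Bcl2l11 was called for genotype in Trm without VHL-deficient replicate 1 (0.019) or WT replicate 2 (0.029). Pmaip1 was called in VHL-deficient tumor against spleen with library weights (0.030) and in a fit of the compared groups (0.0081); the causes were not tested. Of 61 calls of other genes named by the rule 27 were lost in at least 1 alternative and 0 reversed.

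With a replicate block 7 genotype calls and 8 tissue calls remained, and 0 in the other families; Bax in Trm was the 1 call lost. The labels do not say whether libraries of the same number share anything else. Of 23 same-number pairs of samples, 8 had a correlation over 0.1 (range -0.18 to 0.27). Groups of 2 libraries gave the same value for both numbers, so the pairs are not independent. Pairs of the 2 genotypes in the same setting ran from 0.029 to 0.27. The other pairs ran from -0.18 to -0.011. With the numbers of the nonTrm libraries crossed, the genotype and tissue calls of the replicate block were 8 and 8. Counts over all genes ranged, for genotype, from 604 to 3023 in day 11 tumor (main 984), 183 to 410 in unsplit day 7 tumor (273), 270 to 632 in spleen (455), 894 to 1957 in Trm (1446) and 11 to 399 in nonTrm (332); for Trm against nonTrm from 0 to 161 in WT (43) and 0 to 10 without VHL (1); for tumor against spleen from 2305 to 3130 in WT (3079) and 1780 to 3494 without VHL (2213); for days from 0 to 13 in WT and 0 to 156 without VHL; and for the tissue interaction from 1 to 16 (10). Leaving out 1 compared library lowered them to as few as 418 in day 11 tumor (VHL-deficient replicate 2), 94 in unsplit day 7 tumor (VHL-deficient replicate 1), 230 in spleen (VHL-deficient replicate 1), 234 in Trm (VHL-deficient replicate 2), 131 in nonTrm (WT replicate 2), and 1486 and 876 between tumor and spleen (WT tumor replicate 2 and VHL-deficient tumor replicate 1). A replicate block gave 16 for WT Trm against nonTrm and 4 for the tissue interaction. Without VHL-deficient nonTrm replicate 1 they reached 1996 for genotype in nonTrm, 2544 for VHL-deficient Trm against nonTrm and 1496 for the subset interaction. A further TMM scaling moved the median gene by over 0.1 in nonTrm (0.024 to -0.079) and in the subset interaction (0.0058 to 0.16). The planned quasi-likelihood count test was not run, and voom on recovered reads, chosen after seeing the data, took its place. Depth limits Bak1 and Bbc3 most.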
